A study of Rattus norvegicus with 4 samples.

Results

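Integrins and laminins were examined across cartilage libraries of rats labelled osteoarthritis and rats labelled healthy. The 40 genes were taken by symbol from the 24005 genes of the count table, with no threshold on any measured value, although the families were picked for study with earlier results of these data known. They comprise 17 integrin alpha chains, 8 integrin beta chains, 11 laminin chains, and 4 further basement membrane genes, Nid1, Nid2, Hspg2 and Agrn. The 2 osteoarthritis libraries came from male rats of the outbred Sprague Dawley strain, with a weight of 140 to 230 g and an age of 8 to 12 weeks, and carry both the disease label osteoarthritis and the treatment label XGS, for the herbal preparation Xiaogu San. The 2 control libraries came from rats of the same sex, strain, age and weight, labelled healthy and control. By the series title and design text, monosodium iodoacetate, which blocks glycolysis in chondrocytes, was used to induce the disease. No library analysed here carries the osteoarthritis label without XGS, so disease and preparation cannot be told apart. The design text calls the normal animals mice, whereas every sample is labelled rat. The labels do not say whether replicates are separate animals, so the p-values measure the spread between these libraries, which may be technical.

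Integrins are cell surface receptors built from 1 alpha and 1 beta chain, which bind matrix proteins or counter-receptors outside the cell and link them to the actin cytoskeleton inside. Laminins are trimers of 1 alpha, 1 beta and 1 gamma chain that assemble into the sheet of the basement membrane, where nidogens and the proteoglycan perlecan join them to type IV collagen. Chondrocytes lie in a pericellular matrix that also holds perlecan, and they attach to collagen II through the alpha10 beta1 integrin. Blood vessels, muscle, fat and nerve are wrapped in basement membranes, and leukocytes carry integrins of their own, so bulk tissue can hold these transcripts from many sources.

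Depth was 24492412 to 28270779 counts per library. Of the 40 genes, 39 had enough counts to be tested among 15282 genes in all, and Lama1 had not. Fold changes are osteoarthritis over control, from the quasi-likelihood test of edgeR, with p-values adjusted by Benjamini-Hochberg over all genes tested. That test called 0 of the 39 at an adjusted p of 0.05, as it called 0% of all genes. At an unadjusted p under 0.05 it had 15 of the 39 higher (38.5%), against 12.2% of all genes, and 6 lower (15.4%), against 11.2%. DESeq2, another count model, called 14 higher (35.9%), against 7.24% of all genes, and 4 lower (10.3%), against 8.26%. Without regard to a test, 20 of the 39 (51.3%) lay above both controls in each osteoarthritis library, against 30.0% of all genes. In 7 (17.9%) each lay below both, against 26.5%. The median log2 fold change was 1.10 for the 39 and 0.15 for all genes tested. The shares on the lower side were thus near those of all genes, and what stood above them lay on the higher side. No exact permutation test is given, since 2 libraries against 2 allow no p under 0.333.

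Of the 14 basement membrane genes that could be tested, 12 lay above both controls in each osteoarthritis library (85.7%, against 30.0% of all genes). All 14 log2 fold changes were positive, and their median was 1.66. edgeR called 0, and at an unadjusted p under 0.05 had 11 higher (78.6%, against 12.2% of all genes) and 0 lower (against 11.2%). DESeq2 called 10 higher (71.4%, against 7.24%) and 0 lower (against 8.26%). Nid1, nidogen 1, which bridges laminin to type IV collagen, and Lamb1, a laminin beta chain of embryonic and many adult basement membranes, had the highest log2 fold changes of the 14. Of the 25 integrin chains 8 lay above both controls (32.0%, against 30.0% of all genes) and 7 below both (28.0%, against 26.5%), shares near those of all genes. The other 10 overlapped, and the median log2 fold change was 0.53. At an unadjusted p under 0.05 edgeR had 4 integrin chains higher (16.0%, against 12.2% of all genes) and 6 lower (24.0%, against 11.2%). It called 0 at an adjusted p of 0.05, whereas DESeq2 called 4 higher (16.0%, against 7.24%) and 4 lower (16.0%, against 8.26%).

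Nid1 had 394.8 and 621.3 CPM (counts normalised to library size with TMM factors) in the osteoarthritis libraries, against 73.04 and 63.06 CPM in the controls. Lamb1 had 183.9 and 234.5 CPM in osteoarthritis and 31.82 and 20.75 CPM in control. For both genes each osteoarthritis library stood far above both controls. Libraries of a group differed less, by up to 1.57-fold for Nid1 and 1.53-fold for Lamb1. The log2 fold change was 2.90 ± 0.44 (SE) for Nid1, with an adjusted p of 0.0835 in edgeR and 1.07e-09 in DESeq2. For Lamb1 it was 2.99 ± 0.40, with an adjusted p of 0.0824 in edgeR and 9.85e-10 in DESeq2. Lamc1, the gamma chain shared by most laminins, had 372.5 and 712.2 CPM in osteoarthritis and 141.1 and 113.5 CPM in control. The fitted log2 fold change was 2.09 ± 0.49 (edgeR adjusted p = 0.113, DESeq2 adjusted p = 0.000335). Here too the groups did not overlap, with osteoarthritis replicate 2 the highest library.

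The RefSeq promoter windows of these 3 genes are shown because Nid1, Lamb1 and Lamc1 encode proteins of one complex and lay above both controls together. Each window runs from 250 bases before to 50 bases after the RefSeq start in assembly GRCr8, is written 5′ to 3′ on the gene's strand, and has the letters of the GC box and the TATA box in capitals, and of no other motif. The GC box was searched as GGGCGG. The TATA box was searched as TATAAA. Both strands were searched for these and for all motifs below:
Nid1 promoter window (chr17:93069036-93069335, plus strand): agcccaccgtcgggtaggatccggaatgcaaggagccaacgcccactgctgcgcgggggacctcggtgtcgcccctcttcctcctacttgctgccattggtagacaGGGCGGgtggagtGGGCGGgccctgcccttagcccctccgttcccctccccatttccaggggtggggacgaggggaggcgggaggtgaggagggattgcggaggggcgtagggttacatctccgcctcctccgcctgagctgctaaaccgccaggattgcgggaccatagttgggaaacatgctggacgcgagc
Lamb1 promoter window (chr6:53562846-53563145, plus strand): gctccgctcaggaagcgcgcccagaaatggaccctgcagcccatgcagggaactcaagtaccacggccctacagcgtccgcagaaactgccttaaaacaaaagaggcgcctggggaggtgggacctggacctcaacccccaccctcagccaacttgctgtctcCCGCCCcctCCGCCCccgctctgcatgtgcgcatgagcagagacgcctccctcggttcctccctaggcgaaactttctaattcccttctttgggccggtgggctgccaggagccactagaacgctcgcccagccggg
Lamc1 promoter window (chr13:68051937-68052236, minus strand): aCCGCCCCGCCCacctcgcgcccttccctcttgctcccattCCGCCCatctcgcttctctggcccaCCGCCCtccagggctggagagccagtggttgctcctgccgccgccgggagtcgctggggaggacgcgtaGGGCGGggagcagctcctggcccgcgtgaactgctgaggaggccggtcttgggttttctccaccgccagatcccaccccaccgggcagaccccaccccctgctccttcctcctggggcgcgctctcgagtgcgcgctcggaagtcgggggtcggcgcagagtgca
Of the 40 genes 30 had a window. The GC box letters were found in 17 of these 30, against 34.9% of all 27457 windows. The median GC content was 59.7% over the 30 and 52.3% over all windows. The TATA box letters were found in 2 of the 30, in Lama4 and Itgb7, against 14.3% of all windows. The letters CCAAT were found in 7, against 37.7%, and AACAAT, a SOX motif, in 1, Itga2, against 11.6%. Nid1 held 2 GC boxes, Lamb1 2 and Lamc1 5, of which a pair overlaps. These matches describe letters only.

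Among the laminin alpha chains, which set where a laminin is used and which receptor it meets, Lama4 of blood vessels and fat cells had the highest FPKM, a value normalised to gene length and library size, in each of the 4 libraries. It had 197.2 and 368.0 CPM in osteoarthritis and 67.23 and 64.86 CPM in control. Its log2 fold change was 2.10 ± 0.44 (edgeR adjusted p = 0.101, DESeq2 adjusted p = 0.000247). Lama5, a chain of mature vessels and epithelia, had 222.4 and 239.0 CPM in osteoarthritis and 78.81 and 37.74 CPM in control. Lama2, the chain of muscle and peripheral nerve, had 58.61 and 72.55 CPM in osteoarthritis and 16.23 and 12.20 CPM in control. All 3 stood apart from the controls, and Lama2 had an adjusted p of 0.0835 in edgeR and 2.24e-05 in DESeq2, with a log2 fold change of 2.21 ± 0.35. Lama3, the chain of skin and other epithelia, was low, with 18.62 and 12.53 CPM in osteoarthritis and 3.731 and 7.058 CPM in control. Lama1, a chain of the early embryo, had 4 and 3 counts in osteoarthritis and 0 in each control, where up to 3 counts could be missed by counting error, so no fold is given.

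The remaining laminin chains were less alike. Lamb2, the beta chain of vessels and the synapse between nerve and muscle, had 573.0 and 645.8 CPM in osteoarthritis and 339.0 and 207.7 CPM in control (log2 fold change 1.16 ± 0.44). Lamb3, a partner of Lama3 in the laminin of skin, had 3.731 and 7.951 CPM in osteoarthritis and 3.485 and 1.227 CPM in control (log2 fold change 1.31 ± 0.94). Lamc3, a gamma chain also found outside basement membranes, had 51.73 and 1.210 CPM in osteoarthritis and 16.30 and 10.51 CPM in control. The controls thus lay between the 2 osteoarthritis libraries, which differed 42.7-fold. Its log2 fold change of 0.98 ± 1.43 became -3.50 without osteoarthritis replicate 1 and 1.95 without osteoarthritis replicate 2.

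Hspg2, perlecan, the heparan sulfate proteoglycan of basement membranes and of the chondrocyte's pericellular matrix, had 815.2 and 2239 CPM in osteoarthritis and 530.1 and 478.1 CPM in control. Its 2 osteoarthritis libraries differed 2.75-fold, and the log2 fold change was 1.60 ± 0.63 (edgeR adjusted p = 0.211, DESeq2 adjusted p = 0.0397). Without osteoarthritis replicate 2 the log2 fold change was 0.69. Nid2, the second nidogen, had 103.5 and 106.3 CPM in osteoarthritis and 30.87 and 40.05 CPM in control, and Agrn, agrin, which clusters receptors at the nerve-muscle synapse, had 158.5 and 109.8 CPM against 50.16 and 30.88 CPM in control. Neither overlapped, with log2 fold changes of 1.57 ± 0.32 for Nid2 and 1.73 ± 0.41 for Agrn. RefSeq lists 11 pseudogenes named after Nid2, so its count may hold or lack reads of such copies.

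**Figure D1:**
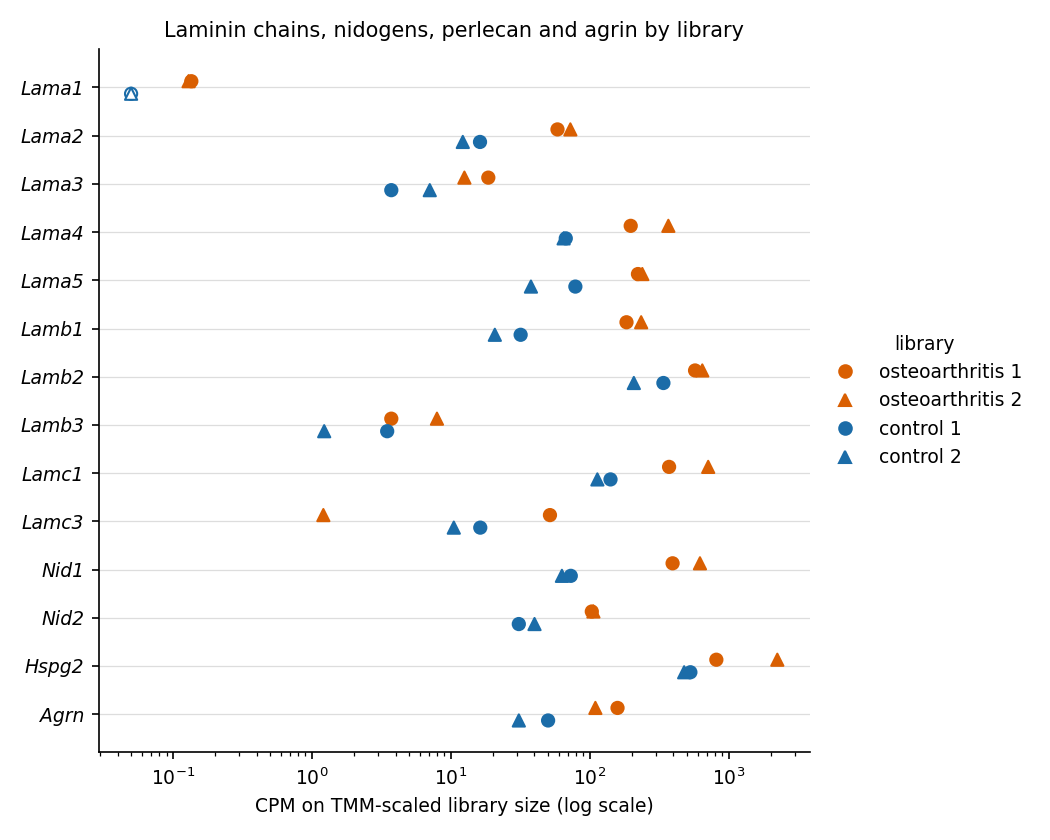
CPM of laminin, nidogen, perlecan and agrin genes on a log axis, 1 point per library, with osteoarthritis in orange above control in blue, circles for replicate 1 and triangles for replicate 2. Hollow symbols are counts of 0, drawn at the left edge; the orange points lie right of the blue ones for all genes shown except Lamc3.

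The chain makeup of the laminins was compared by FPKM, which corrects for gene length, as each chain's share of the summed FPKM of its class within a library. Lamb1 made up 22.3% and 24.3% of beta chain FPKM in the osteoarthritis libraries and 7.69% and 8.19% in the controls. Lamb2 made up 77.1% and 74.5% in osteoarthritis and 91.1% in each control. The ratio of Lamb2 to Lamb1 FPKM was 3.46 and 3.06 in osteoarthritis and 11.8 and 11.1 in control. The groups were far apart and the libraries within each close together, so the balance of the 2 main beta chains did not overlap between the groups. For the alpha chains the groups overlapped. Lama4 made up 54.3% and 67.2% of alpha chain FPKM in osteoarthritis and 55.3% and 67.2% in control, and Lama5 made up 32.8% and 23.3% against 34.7% and 20.9%. Summed alpha chain FPKM was 72.2 and 80.6 in osteoarthritis and 20.3 and 14.7 in control. Summed gamma chain FPKM was close to it in each library, at 0.967 and 1.04 times the alpha sum in osteoarthritis and 1.07 and 1.06 times in control. Summed beta chain FPKM was not, at 2.21 and 1.71 times the alpha sum in osteoarthritis and 3.31 and 2.55 times in control. Nid1 was 3.04 and 4.65 times Nid2 by FPKM in osteoarthritis, and 1.88 and 1.25 times in control.

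**Figure D2:**
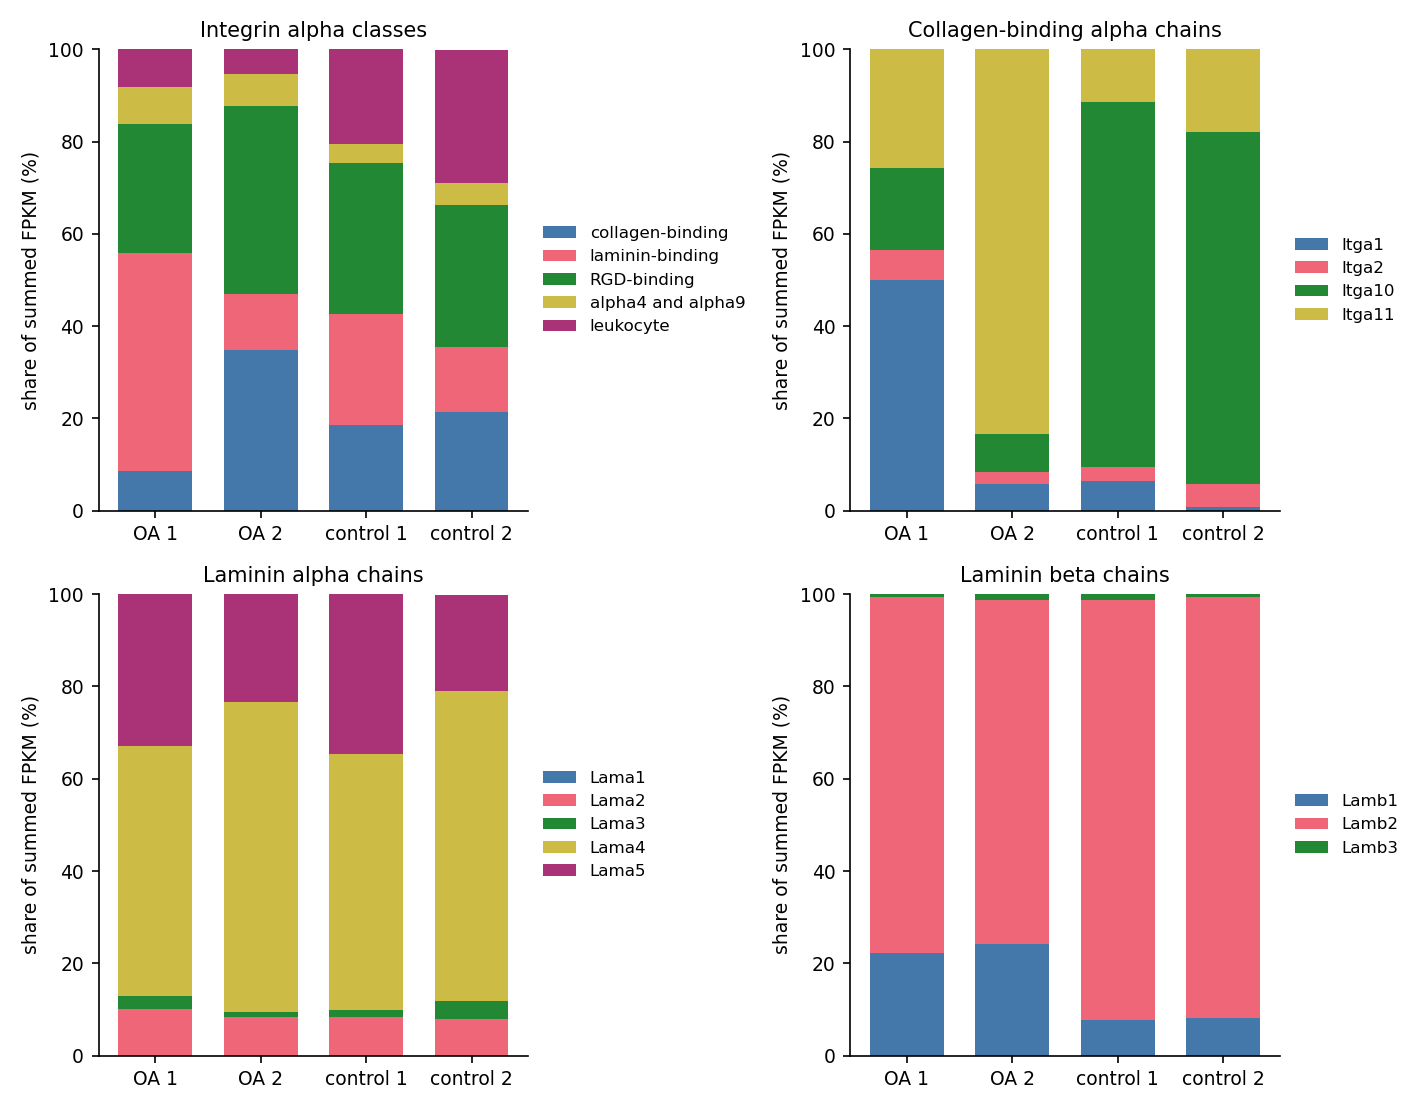
Stacked bars of the share of summed FPKM, in percent, held by each class or chain in each library, with the 2 osteoarthritis (OA) libraries left of the 2 controls. Lamb1 takes 22.3% and 24.3% of laminin beta chain FPKM in osteoarthritis against 7.69% and 8.19% in control, while Lama4 holds over 54% of the alpha chains in all 4 libraries, and Itga10 holds most of the collagen-binding integrin share in the controls only.

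Other basement membrane genes were read beside the laminins. Of 25 listed genes, such as the type IV collagens, 23 could be tested. edgeR called 0 and had 7 higher (30.4%, against 12.2% of all genes) and 0 lower at an unadjusted p under 0.05, and DESeq2 called 6 higher (26.1%, against 7.24%) and 0 lower. Above both controls lay 9 (39.1%, against 30.0%) and below both 2 (8.70%, against 26.5%), with a median log2 fold change of 0.77. Col18a1, the collagen that releases endostatin, had 963.2 and 1049 CPM in osteoarthritis and 221.0 and 115.2 CPM in control. Pxdn, peroxidasin, which crosslinks type IV collagen, had 387.4 and 574.8 CPM in osteoarthritis and 117.4 and 68.39 CPM in control. Neither overlapped, and their log2 fold changes were 2.58 ± 0.52 and 2.37 ± 0.48. Fbln2, fibulin 2, and Frem1, a protein of embryonic basement membranes, had log2 fold changes of 2.23 ± 0.35 and 2.36 ± 0.51. edgeR's adjusted p of these 4 genes, named for their small unadjusted p, was 0.0835 to 0.107.

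The 4 collagen-binding alpha chains did not go one way. Itga10, the chain of cartilage, lay below both controls, Itga1 lay above both, and Itga11, the chain of fibroblasts and tendon, was high in osteoarthritis replicate 2 alone. Itga10 had 13.40 and 41.14 CPM in osteoarthritis and 102.8 and 103.6 CPM in control. The controls were alike and each osteoarthritis library was far below them, and the fitted difference on the log2 scale was -1.92 ± 0.58 (edgeR adjusted p = 0.154, DESeq2 adjusted p = 0.0195). Itga11 had 18.76 and 406.5 CPM in osteoarthritis and 14.57 and 23.74 CPM in control. Replicate 1 lay between the controls and replicate 2 was 21.7-fold above replicate 1. Its log2 fold change of 3.47 ± 1.36 (edgeR adjusted p = 0.211, DESeq2 adjusted p = 0.0157) was -0.03 without osteoarthritis replicate 2. Itga1, a chain of smooth muscle and fibroblasts, had 29.54 and 22.86 CPM in osteoarthritis and 6.547 and 0.9206 CPM in control. The controls differed 7.11-fold, and the log2 fold change was 2.81 ± 0.95 (edgeR adjusted p = 0.176, DESeq2 adjusted p = 0.0234), or 4.76 without control replicate 1. Itga2, the chain of platelets and epithelia, overlapped, with 7.055 and 17.93 CPM in osteoarthritis and 5.667 and 9.589 CPM in control.

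The promoter windows of Itga11 and Itga10 are shown because Itga11 exceeded Itga10 in FPKM in the osteoarthritis libraries only, with the same letters in capitals:
Itga11 promoter window (chr8:72041182-72041481, plus strand): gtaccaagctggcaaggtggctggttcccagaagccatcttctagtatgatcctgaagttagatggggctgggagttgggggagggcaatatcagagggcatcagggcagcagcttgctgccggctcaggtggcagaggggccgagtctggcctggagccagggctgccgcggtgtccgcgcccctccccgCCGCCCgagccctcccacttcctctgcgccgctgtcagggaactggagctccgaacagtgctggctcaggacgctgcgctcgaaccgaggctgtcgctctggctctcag
Itga10 promoter window (chr2:186871461-186871760, plus strand): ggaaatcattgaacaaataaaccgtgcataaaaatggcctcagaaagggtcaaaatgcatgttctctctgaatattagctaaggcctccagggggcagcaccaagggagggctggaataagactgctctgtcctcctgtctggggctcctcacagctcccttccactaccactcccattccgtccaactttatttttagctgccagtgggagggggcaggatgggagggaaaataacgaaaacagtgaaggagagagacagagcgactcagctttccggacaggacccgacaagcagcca
Itga11 held 1 GC box and Itga10 none, and GC content was 65.7% and 51.3%. Within the collagen-binding class, Itga10 held 17.8% and 8.24% of the FPKM in osteoarthritis and 79.1% and 76.4% in control. Itga11 held 25.6% and 83.4% in osteoarthritis and 11.5% and 17.9% in control. The ratio of Itga11 to Itga10 FPKM was 1.43 and 10.1 in osteoarthritis and 0.145 and 0.235 in control, so Itga11 exceeded Itga10 in both osteoarthritis libraries and in neither control. The summed CPM of 11 cartilage markers was 4069 and 10250 in osteoarthritis and 19230 and 31960 in control, a sum that Col2a1 largely carried in the controls. Without Col2a1, left out after the values were seen, the other 10 summed to 638 and 9860 CPM in osteoarthritis and 5312 and 5147 CPM in control, so that osteoarthritis replicate 2 lay above both controls and replicate 1 below both. Their part in the Itga10 level was not tested, and in bulk samples fewer cells of a type and less RNA per cell cannot be told apart. Of the 11, 6 lay below both controls (54.5%, against 26.5% of all genes) and 0 above both (against 30.0%). Each of the 11 was above 0 in every library. Col2a1, the collagen of cartilage, had 3431 and 385.2 CPM in osteoarthritis and 13920 and 26810 CPM in control, so the order of the 2 osteoarthritis libraries was opposite for Col2a1 and Itga10. Acan, the main cartilage proteoglycan, had 70.85 and 2703 CPM in osteoarthritis and 492.5 and 587.0 CPM in control. Sox9, the chondrocyte transcription factor, had 19.54 and 189.0 CPM in osteoarthritis and 28.30 and 41.27 CPM in control, and Col11a1, a fibril collagen of cartilage, 119.5 and 2360 CPM against 196.2 and 531.0 CPM. These 3 were above both controls in osteoarthritis replicate 2 and below both in replicate 1. Sox9 and Col11a1 were named after their values were seen. Comp, a further cartilage marker, had 278.1 and 4468 CPM in osteoarthritis and 4216 and 2506 CPM in control, placed in the same way. Itga10 was below both controls in each osteoarthritis library, as were 6 of the 11 markers: Col2a1, Col9a1, Col9a2, Col9a3, Matn1 and Hapln1. The tendon and ligament list of 6 genes summed to 454.9 and 10270 CPM in osteoarthritis and 2709 and 2921 CPM in control, high in the library where Itga11 was high. Of these 6 tendon and ligament genes 1 lay above both controls (16.7%, against 30.0% of all genes), and none was at 0. The part of tendon in the Itga11 level was not tested.

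The laminin-binding alpha chains, the receptors for the genes above, all had positive fold changes with little separation. Itga6, which pairs with beta1 or beta4, had 109.5 and 116.6 CPM in osteoarthritis and 93.49 and 63.25 CPM in control. The chain's log2 fold change was 0.53 ± 0.34 (edgeR adjusted p = 0.413). Itga7, the laminin receptor of muscle, had 197.6 and 43.52 CPM in osteoarthritis and 50.02 and 14.96 CPM in control. Itga3, an epithelial laminin receptor, had 55.02 and 15.21 CPM in osteoarthritis and 22.21 and 14.73 CPM in control. For Itga7 and Itga3 replicate 1 alone stood above both controls, and Itga3 had a log2 fold change of 0.93 ± 0.66, which was -0.32 without that library. That of Itga7 was 1.89 ± 0.90, and 0.40 without the same library. Itga7 alone made up 29.6% of alpha chain FPKM in osteoarthritis replicate 1, against 4.0% in osteoarthritis replicate 2 and 9.36% and 3.10% in the controls.

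Among the chains that read the RGD motif of fibronectin and vitronectin, Itgav, which also frees latent TGF-beta, had 75.74 and 315.3 CPM in osteoarthritis and 48.64 and 68.12 CPM in control. The groups did not overlap, but replicate 1 lay just above the higher control, and the log2 fold change of 1.74 ± 0.72 (edgeR adjusted p = 0.226) was 0.38 without osteoarthritis replicate 2. Itga5, the fibronectin receptor, had 145.5 and 293.9 CPM in osteoarthritis and 150.6 and 123.6 CPM in control, so the groups overlapped. Itga8, a chain of mesenchyme and smooth muscle, had 35.92 and 42.61 CPM in osteoarthritis and 31.43 and 10.01 CPM in control. Itga9, a receptor for tenascin C and osteopontin, was the integrin alpha chain with the smallest unadjusted p: it had 81.84 and 125.4 CPM in osteoarthritis and 29.64 and 28.65 CPM in control. Its groups were well apart, and the fitted difference on the log2 scale was 1.83 ± 0.35 (edgeR adjusted p = 0.0923, DESeq2 adjusted p = 0.000718). Itga4, its close relative and a homing receptor of lymphocytes, overlapped, with 13.74 and 15.56 CPM in osteoarthritis and 10.63 and 14.38 CPM in control.

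Itgb1, the beta chain that partners the collagen-binding and the laminin-binding alpha chains, had the highest FPKM of the 40 genes in each of the 4 libraries. It had 631.0 and 1151 CPM in osteoarthritis and 398.3 and 305.9 CPM in control. The fitted log2 fold change was 1.34 ± 0.50 (edgeR adjusted p = 0.197, DESeq2 adjusted p = 0.0327). Its share of beta chain FPKM was 63.7% and 66.4% in osteoarthritis and 43.5% and 37.5% in control. The groups were apart on both measures. Itgb4, the beta chain of hemidesmosomes and of Schwann cells, had 292.8 and 200.3 CPM in osteoarthritis and 152.2 and 78.17 CPM in control, also without overlap, with a log2 fold change of 1.10 ± 0.47. Itgb5, a partner of Itgav, had 138.8 and 345.8 CPM in osteoarthritis and 188.2 and 190.6 CPM in control, so the controls lay between the osteoarthritis libraries. Itgb3, the partner of Itgav on osteoclasts and of Itga2b on platelets, had 1.764 and 20.74 CPM in osteoarthritis and 17.21 and 35.37 CPM in control. Its osteoarthritis libraries differed 11.8-fold, and the log2 fold change of -1.23 ± 1.10 was -3.89 without osteoarthritis replicate 2. The osteoclast list of 8 measured genes summed to 127.5 and 521.8 CPM in osteoarthritis and 1343 and 3504 CPM in control, and the megakaryocyte and platelet list of 8 to 22.83 and 64.56 CPM against 596.8 and 569.5 CPM. Of those tested, 5 of 6 osteoclast (83.3%) and 7 of 7 platelet genes lay below both controls, against 26.5% of all genes. In these lists Dcstamp, Calcr and Gp1bb were at 0 in some library. Their part in the Itgb3 level was not tested. Itgb6, an epithelial chain, and Itgb8, a further activator of TGF-beta, overlapped, with levels up to 1.126 and 14.22 CPM.

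Of the 7 leukocyte integrin chains, 6 lay below both controls in each osteoarthritis library, against 26.5% of all genes, and Itgae was the exception. Itgb7, the beta chain of lymphocytes homing to the gut, had the smallest edgeR p of the lower genes, with 6.750 and 10.50 CPM in osteoarthritis and 56.21 and 69.93 CPM in control. The fitted log2 fold change was -2.87 ± 0.39 (edgeR adjusted p = 0.0824, DESeq2 adjusted p = 3.18e-07), and the groups were far apart. Itgb2, the partner of Itgal, Itgam, Itgax and Itgad, had 14.38 and 43.60 CPM in osteoarthritis and 103.4 and 99.73 CPM in control (log2 fold change -1.81 ± 0.57, DESeq2 adjusted p = 0.0286). Itgam, CD11b of neutrophils and macrophages, had 7.632 and 23.94 CPM in osteoarthritis and 45.69 and 46.03 CPM in control. The controls were alike for Itgb2 and Itgam, and osteoarthritis replicate 2 was 3.03-fold and 3.14-fold above replicate 1. Itgad, a chain of tissue macrophages, had 2.747 and 1.512 CPM in osteoarthritis and 11.23 and 18.18 CPM in control, and its log2 fold change was -2.78 ± 0.66 (DESeq2 adjusted p = 0.00226). Itgal, CD11a of lymphocytes and most other leukocytes, and Itgax, CD11c of dendritic cells, had log2 fold changes of -0.99 ± 0.39 and -1.04 ± 0.35. DESeq2 did not call Itgal, Itgax or Itgam, with adjusted p of 0.2, 0.124 and 0.0964. Itgam, Itgax and Itgad are neighbouring relatives in RefSeq GRCr8, where Itgax is also a synonym of Itgad, so how their reads were divided is uncertain.

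The promoter window of Itgb7 is shown because this gene had the smallest p on the lower side, with the same letters in capitals:
Itgb7 promoter window (chr7:135239022-135239321, minus strand): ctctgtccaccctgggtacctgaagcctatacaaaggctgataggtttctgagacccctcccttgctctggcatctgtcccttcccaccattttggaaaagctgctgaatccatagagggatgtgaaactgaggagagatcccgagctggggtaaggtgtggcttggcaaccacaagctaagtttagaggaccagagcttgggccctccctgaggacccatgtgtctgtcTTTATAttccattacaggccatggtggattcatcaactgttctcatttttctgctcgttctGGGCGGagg
It held 1 TATA box and 1 GC box, with 51.7% GC. Itgae, the partner of Itgb7 on lymphocytes within epithelia, had 10.18 and 5.618 CPM in osteoarthritis, against 2.915 CPM in control replicate 2 and 0 counts in control replicate 1, where 3 counts would be 0.106 CPM. Its log2 fold change of 2.44 ± 1.92 was 1.38 without control replicate 1 and 10.74 without control replicate 2, a fit that depends on the prior count since the remaining control is at 0. Itgae thus lay above both controls while its only known partner lay below both. The share of alpha chain FPKM held by the 5 leukocyte chains was 8.24% and 5.33% in osteoarthritis and 20.4% and 28.8% in control. The share of beta chain FPKM held by Itgb2 and Itgb7 was 2.55% and 3.70% in osteoarthritis and 20.8% and 25.0% in control. Leukocyte markers were lower in the same libraries. The neutrophil list of 10 summed to 101.0 and 593.0 CPM in osteoarthritis and 7250 and 11350 CPM in control, the macrophage list of 12 to 1138 and 1521 CPM against 5801 and 8288 CPM, and the B cell list of 8 to 25.40 and 39.54 CPM against 427.4 and 606.7 CPM. Below both controls lay 9 of 9 neutrophil genes tested, 9 of 12 macrophage genes (75.0%) and 8 of 8 B cell genes, against 26.5% of all genes. Of the macrophage genes 1 lay above both controls (8.33%, against 30.0% of all genes) and 2 overlapped. Lyz2 carried most of the macrophage sum in the controls, with 382.2 and 1100 CPM in osteoarthritis and 4705 and 6879 CPM in control. In these lists Ltf alone was at 0 in some library. Their part in the leukocyte integrin levels was not tested.

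**Figure D3:**
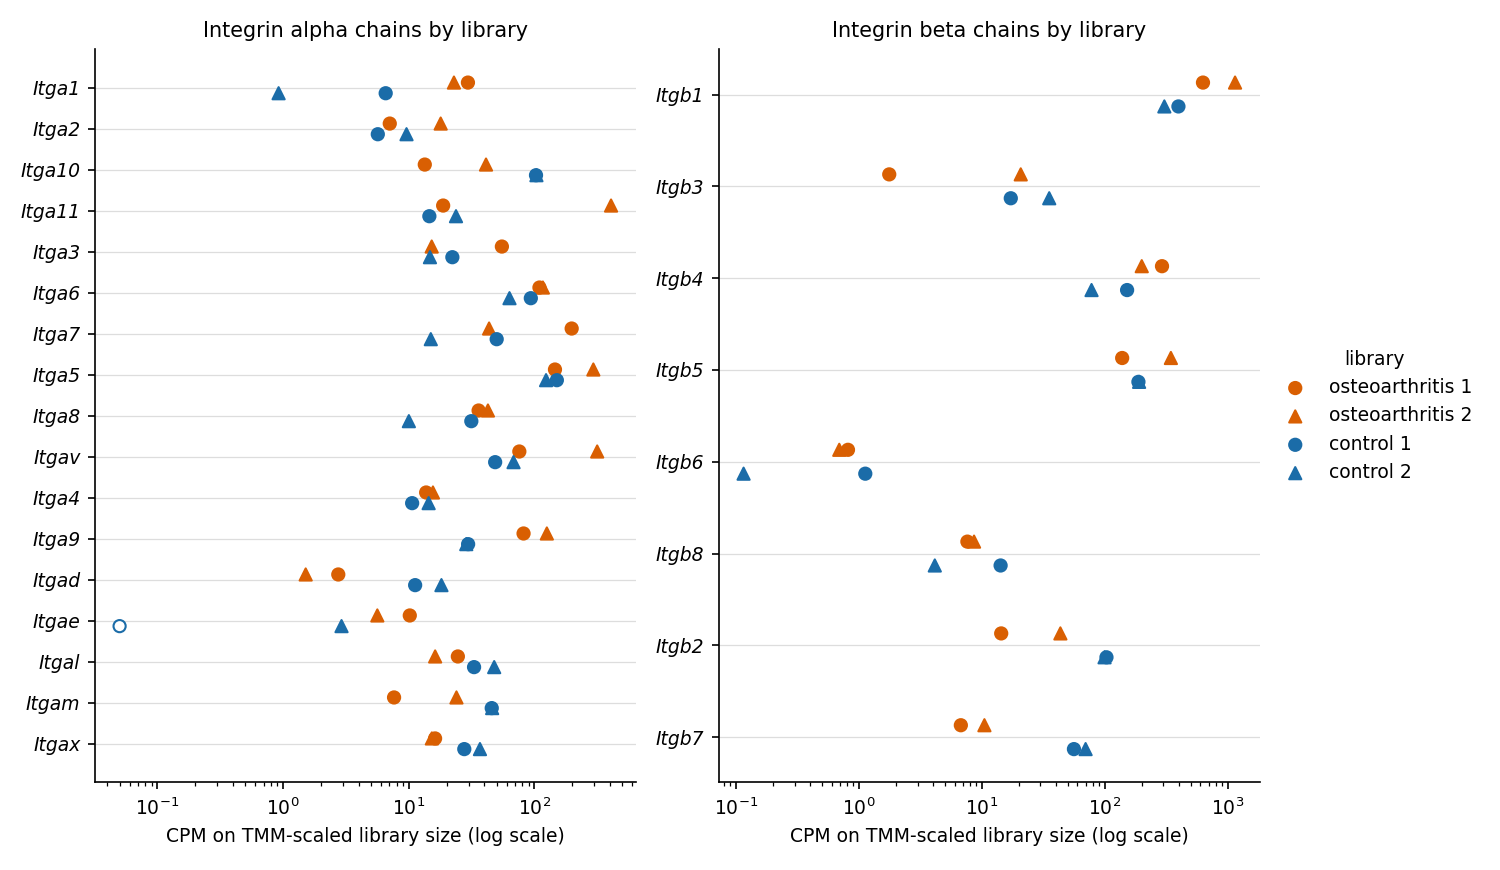
CPM of the 17 integrin alpha and 8 integrin beta chains on log axes, 1 point per library, osteoarthritis in orange above control in blue, circles for replicate 1 and triangles for replicate 2, with the hollow circle a count of 0 drawn at the left edge. In osteoarthritis the leukocyte chains other than Itgae and the cartilage chain Itga10 lie left of the controls, Itga9 and Itgb1 lie right of them, and Itga11 and Itgb3 are spread over the 2 osteoarthritis libraries.

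The 2 osteoarthritis libraries stood far apart for many of these genes. Replicate 1 was 4.54-fold above replicate 2 for Itga7, 3.62-fold for Itga3 and 42.7-fold for Lamc3. Replicate 2 was 21.7-fold above replicate 1 for Itga11, 11.8-fold for Itgb3 and 4.16-fold for Itgav. Nid2, Itga6 and Lama5, in comparison, differed 1.03-fold, 1.07-fold and 1.07-fold between them. Marker lists differed between the same libraries: the adipocyte list summed to 6552 and 121.0 CPM in osteoarthritis and 1207 and 310.1 CPM in control, and the Schwann cell list to 985.8 and 476.5 CPM against 395.9 and 367.4 CPM. The skeletal muscle list was at 160.8 and 443.8 CPM in osteoarthritis and 2426 and 114.6 CPM in control, with control replicate 1 the highest library. Each of these lists had 1 gene at 0 in some library, Lep for adipocytes, Mag for Schwann cells and Myh7 for muscle. Above both controls lay 0 of 8 adipocyte, 1 of 8 Schwann cell (12.5%) and 0 of 10 muscle genes, against 30.0% of all genes. Of the smooth muscle and pericyte markers none was at 0, and 4 of 8 lay above both controls (50.0%, against 30.0% of all genes). These markers summed to 4854 and 2460 CPM in osteoarthritis and 2421 and 838.1 CPM in control. Their part in the difference of Itga7, Itga3 and Lamc3 was not tested.

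**Figure D4:**
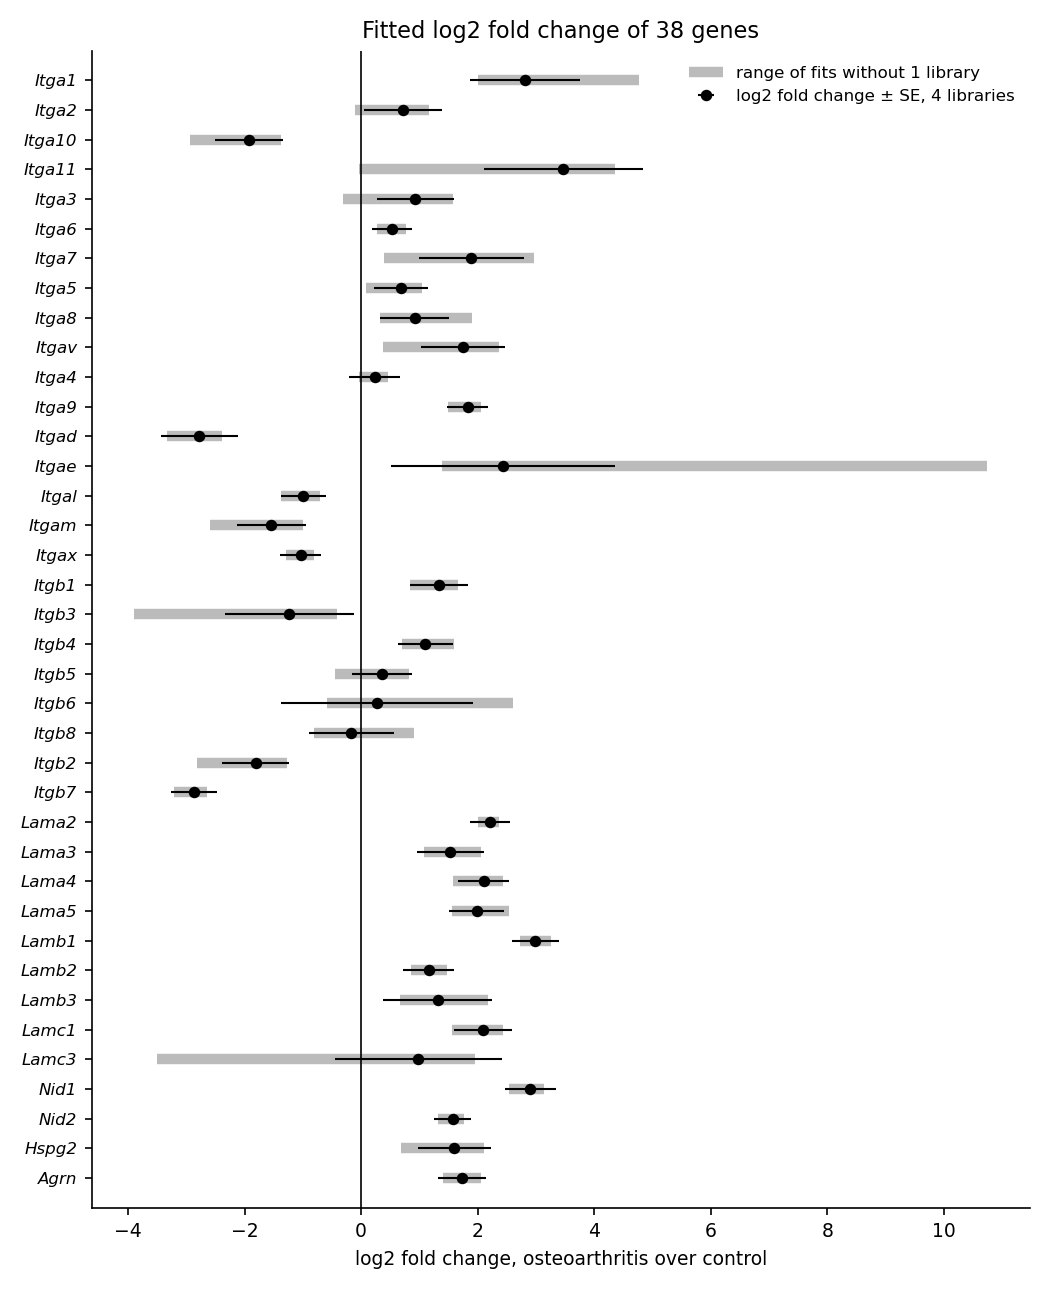
Fitted log2 fold change, osteoarthritis over control, of 38 of the genes tested, as points with bars of 1 SE, and the range of the fits that leave out 1 library as grey bars. The grey bars of 8 genes cross 0, Itga2, Itga3, Itga4, Itga11, Itgb5, Itgb6, Itgb8 and Lamc3, and those of the basement membrane genes shown, other than Lamc3, lie right of it.

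Blood vessels were examined as another tissue with basement membranes. The endothelial list of 10 genes, none at 0, summed to 2286 and 1172 CPM in osteoarthritis and 1792 and 842.7 CPM in control, so the groups overlapped. Its median log2 fold change was 0.49. Above both controls lay 3 of 10 genes (30.0%, the same share as of all genes), and below both 0 (against 26.5%). The synovial lining and fibroblast list summed to 33190 and 139700 CPM in osteoarthritis and 14350 and 42270 CPM in control. That sum rests mostly on Col1a1 and Col3a1, and replicate 2 of osteoarthritis was the highest library. Of the list's 8 genes 3 lay above both controls (37.5%, against 30.0% of all genes) and 3 below both (37.5%, against 26.5%). Prg4 was among those below, with 23.91 and 145.8 CPM in osteoarthritis and 3036 and 1213 CPM in control. The T and NK cell list was at 133.1 and 58.64 CPM in osteoarthritis and 199.9 and 337.8 CPM in control. Erythroid markers were at 1346 and 4804 CPM against 97490 and 105700 CPM, and osteoblast and osteocyte markers at 49.42 and 77.87 CPM against 936.1 and 4395 CPM. Epithelial markers were low, at 13.47 and 6.396 CPM in osteoarthritis and 36.32 and 43.88 CPM in control, with Krt5, Krt14, Krt18 and Epcam at 0 in some library. Cdh1 alone carried most of the control sum, with 3.358 and 2.204 CPM in osteoarthritis and 27.77 and 37.25 CPM in control. Of the 3 epithelial genes tested 1 lay below both controls (33.3%, against 26.5% of all genes) and 2 overlapped. Whether any of these tissues had a part in the laminin and nidogen levels was not tested.

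**Figure D5:**
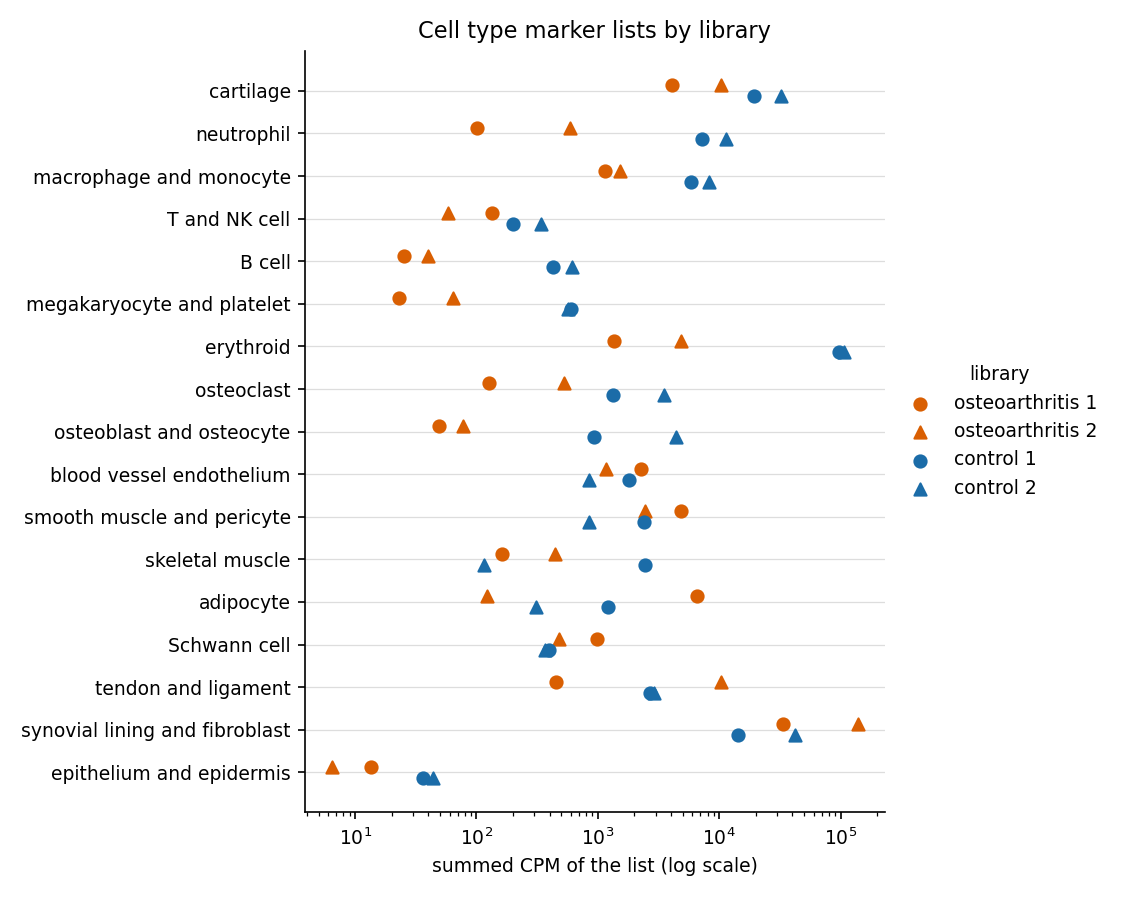
Summed CPM of the marker lists of 17 cell types on a log axis, 1 point per library, osteoarthritis in orange above control in blue, circles for replicate 1 and triangles for replicate 2. In osteoarthritis the blood cell, bone and cartilage lists lie left of the controls, the endothelial list overlaps, and the adipocyte and tendon lists split the 2 osteoarthritis libraries.

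Inside the cell, the 25 genes that couple integrins to actin and to signalling had a median log2 fold change of 0.03. Of these edgeR called 0 and had 8 higher (32.0%, against 12.2% of all genes) and 3 lower (12.0%, against 11.2%) at an unadjusted p under 0.05, and DESeq2 called 7 higher (28.0%, against 7.24%) and 2 lower (8.00%, against 8.26%). Above both controls lay 10 (40.0%, against 30.0%) and below both 5 (20.0%, against 26.5%). Fermt3, kindlin 3, the integrin activator of blood cells, had 15.67 and 27.40 CPM in osteoarthritis and 116.7 and 98.27 CPM in control, with a log2 fold change of -2.32 ± 0.40. It lay below both controls, like the leukocyte integrins it activates. Actn1, alpha-actinin 1, had 221.7 and 294.2 CPM in osteoarthritis and 76.49 and 82.20 CPM in control. Vcl, vinculin, and Parva, parvin, which also tie integrins to actin, had log2 fold changes of 1.65 ± 0.42 and 1.61 ± 0.38, and Actn1 one of 1.70 ± 0.36. edgeR's adjusted p of these 4 was 0.0858 to 0.122.

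Of 25 listed ligands of the interstitial matrix and of cell surfaces, 23 were in the table and 20 could be tested, with a median log2 fold change of 0.37. edgeR called 0 and had 2 higher (10.0%, against 12.2% of all genes) and 4 lower (20.0%, against 11.2%) at an unadjusted p under 0.05, and DESeq2 called 1 higher (5.0%, against 7.24%) and 4 lower (20.0%, against 8.26%). Above both controls lay 1 (5.0%, against 30.0%) and below both 6 (30.0%, against 26.5%). The 1 above was Postn, periostin, a ligand of Itgav integrins, with 822.6 and 4449 CPM in osteoarthritis and 41.85 and 91.71 CPM in control (log2 fold change 5.30 ± 1.09, edgeR adjusted p = 0.0982). Mfge8, an RGD ligand that tags dying cells, had 654.5 and 664.6 CPM in osteoarthritis and 2091 and 2241 CPM in control (log2 fold change -1.72 ± 0.46). Ibsp, bone sialoprotein, had 25.54 and 36.34 CPM in osteoarthritis and 155.0 and 568.1 CPM in control, and is also in the bone cell list. Fgb, fibrinogen beta, was low in every library and lay below both controls. It had 0.2713 and 0.3025 CPM in osteoarthritis and 6.688 and 2.838 CPM in control (log2 fold change -4.03 ± 1.15). Tnc, tenascin C, a ligand of Itga9 and also among the tendon markers, had 104.2 and 2884 CPM in osteoarthritis and 270.0 and 469.5 CPM in control, and so was high in replicate 2 alone, whereas Itga9 was high in both.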

How the data were processed

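Cartilage mRNA of 4 rat libraries was analysed, 2 labelled osteoarthritis and 2 control, grouped by the disease label; no batch or pairing is labelled. The authors deposited raw read counts per gene and FPKM values. Per the submitters' processing notes, fastp (trimming) and TopHat (alignment) were used and the build was hg38, a human build, although the symbols are rat; the counting tool, the annotation and strandedness are not stated there, and reads shared by overlapping or antisense genes are not separable. Every deposited FPKM value above 0 equalled count over gene length and column total within a relative difference of 3.6e-14, so it is no independent measurement. It was used for levels between genes.

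Counts were fitted with edgeR 4.0.16 in R 4.3.3 across 15282 genes kept by filterByExpr, with TMM factors of 1.21 and 0.891 (osteoarthritis) and 1.01 and 0.923 (control), the quasi-likelihood F test, two-sided, and a threshold of 0.05. The dispersion common to all genes was 0.391, with 3.34 prior degrees of freedom. SE is the log2 fold change over the root of F. CPM use TMM-scaled sizes. DESeq2 1.42.0, limma 3.58.1, other scalings, filters and pseudocounts, and fits without each library were alternatives; with 1 library left out, the single remaining one is taken to vary as the other group does. Code was tested on simulated data. The gene families and lists were chosen with earlier results of these data known; within a family, genes were taken by symbol. Of the 40 genes 39 are described, and 1 is counted but not reported here; of each pathway list the 4 with the smallest unadjusted p are named, and of each marker list up to 3 by mean count, with others named for a value of 0. All 40 symbols matched RefSeq GRCr8. Intervals and floors of 3 counts cover counting error only.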

Additional observations from a re-analysis of the deposited data

How the results depend on the processing

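edgeR's quasi-likelihood test called 0 of the 39 genes higher and 0 lower, as it did with RLE factors, upper quartile factors, library size alone and a minimum of 1 CPM in 2 libraries, and as limma did by voom and on log2 FPKM. Without the filter it called 11 higher and 4 lower, DESeq2 14 and 4, and edgeR's likelihood ratio test 10 and 4. The fits without 1 library called 0 to 12 higher and 0 to 5 lower: 12 and 3 without osteoarthritis replicate 1, 11 and 5 without osteoarthritis replicate 2, and 0 and 0 without either control. The cause was not tested. Over all genes these counts were 0 and 0 in the main test, 677 and 751 without the filter, 1107 and 1262 by DESeq2, 965 and 978 by the likelihood ratio test, 1069 and 949 without osteoarthritis replicate 1, and 538 and 728 without osteoarthritis replicate 2. The median log2 fold change of the 39, 1.10, was 0.75 on log2(FPKM + 1), where the pseudocount shrinks low genes, and 0.74 to 1.38 without 1 library. Library size alone moved the median of all genes to 0.27, against 0.15 with TMM; no gene of 38 described changed sign under any of the 3 other scalings.

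Over 14 settings 30 of the 38 genes described and tested kept their sign. Itgb8 turned to 0.04 by limma-voom, 0.03 on log2(FPKM + 1) and 0.15 on log2(FPKM + 0.1), and Lamc3 to -0.46 by voom and -0.36 on log2(FPKM + 0.1). Without 1 library the ranges that cross 0 were -0.11 to 1.17 for Itga2, -0.32 to 1.57 for Itga3, -0.04 to 0.46 for Itga4, -0.03 to 4.35 for Itga11, -0.45 to 0.82 for Itgb5, -0.58 to 2.60 for Itgb6, -0.81 to 0.90 for Itgb8 and -3.50 to 1.95 for Lamc3. Of 184 shares within a library, 67 moved by more than the spread between replicates when taken from raw counts. On raw counts Lamb1 still held 24.2% and 26.4% of the laminin beta chains in osteoarthritis and 8.50% and 9.03% in control. Counts below 30 in some library limit what can be said of Itgb6, Lama1, Itga1 (control replicate 2), Itgae (control replicate 1) and Lamc3 (osteoarthritis replicate 2).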
